A study of Homo sapiens with 24 samples.

Results

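The genes described here are 9 targets, inhibitors and ligands of the TGF-beta and BMP pathways, out of 23368 genes in a table of read counts. They were picked by symbol, and all were present: ID1, ID2, ID3, SMAD6, SMAD7, BAMBI, SKIL, TGFB1 and TGFB2. The RNA came from 24 cultures of AGS, a line established from a human gastric adenocarcinoma, grown in medium with fetal calf serum, whose genotype is given as wild type. Each of the 6 groups had 4 libraries from biological replicates, taken after 24 h. Control cultures had no inhibitor, and whether they received solvent is not stated. Single agents were PI103 at 0.7 µM, an inhibitor of PI3 kinase and mTOR, PD0325901 at 0.035 µM, an inhibitor of the kinase MEK, and (5Z)-7-oxozeaenol (oxozeaenol below) at 0.5 µM, an inhibitor of TAK1. The combinations held PI103 at 0.35 µM with oxozeaenol at 0.25 µM, or PI103 at 0.35 µM with PD0325901 at 0.0175 µM, so each agent stood at 50% of its single-agent dose. All groups share 1 cell line and serum in the medium, and no group received added TGF-beta or BMP, as far as the labels say.

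TGF-beta and BMP ligands bind pairs of receptor kinases that phosphorylate SMAD proteins, which enter the nucleus with SMAD4 and switch target genes on or off. TAK1, encoded by MAP3K7, was named as a kinase activated by TGF-beta and also serves cytokine and stress receptors. Several targets feed back on the pathway: SMAD6 and SMAD7 block receptors and the SMADs they activate, BAMBI is a decoy receptor without a kinase, and SKIL holds SMAD complexes in a repressed state. The ID proteins, classical BMP targets, bind E proteins such as TCF3, TCF4 and TCF12 and keep them from DNA.

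Libraries held 38057638 to 84226380 counts in genes, the lowest being oxozeaenol replicate 3, and 15645 to 18263 genes had at least 1 count, the most in oxozeaenol replicate 2. Without oxozeaenol replicate 2 the log2 fold changes of ID1, ID3, SMAD7, SKIL and BAMBI with oxozeaenol were -1.66, -1.56, -1.58, -1.84 and -0.77, all called. The epithelial markers KRT8, KRT18, KRT19 and EPCAM had medians of 2943, 1522, 618 and 806 CPM (counts-per-million after scaling for library size). Among 4 immune markers, PTPRC and CD3E had at most 7 and 1 counts in any library, while LYZ carried nearly all of the summed level of 37.8 to 48.4 CPM in control and 186.8 to 466.0 CPM in treated libraries. The summed level of 5 fibroblast markers was 14.01 to 17.1 CPM in control. It was 32.2 to 34.3 CPM with PI103 and 8.14 to 9.93 CPM with oxozeaenol. COL1A1, at 7.93 to 34.2 CPM over all libraries, carried nearly all of this sum, with COL3A1 at most 1.10 CPM and COL1A2 and DCN at most 1 count. The part of these markers in the results below was not tested. In bulk RNA, fewer cells with a transcript and fewer copies per cell cannot be told apart.

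Promoter windows from RefSeq (GRCh38.p14) matched 9 of 9 genes. They were searched on both strands over 250 bases before the start site for 3 motifs known from SMAD binding. These were the palindrome GTCTAGAC, the shorter CAGAC and the GC-rich GGCGCC. The windows of ID1, SMAD6 and SKIL are printed, 5′ to 3′ on the gene's strand, because ID1 and SKIL had the largest falls of the 8 tested genes with oxozeaenol and SMAD6 the largest rise with PI103. Capitals mark a motif match. The ID1 and SMAD6 windows are whole, and of SKIL's the first 213 of 250 bases are shown, so its printed end is not the base before the start site.
ID1 chr20:31605039-31605288 plus strand: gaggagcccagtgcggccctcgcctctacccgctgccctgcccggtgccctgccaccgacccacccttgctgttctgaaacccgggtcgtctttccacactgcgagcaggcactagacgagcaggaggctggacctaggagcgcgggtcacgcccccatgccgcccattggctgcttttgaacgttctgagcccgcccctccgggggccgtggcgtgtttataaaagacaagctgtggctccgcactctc
SMAD6 chr15:66701986-66702235 plus strand: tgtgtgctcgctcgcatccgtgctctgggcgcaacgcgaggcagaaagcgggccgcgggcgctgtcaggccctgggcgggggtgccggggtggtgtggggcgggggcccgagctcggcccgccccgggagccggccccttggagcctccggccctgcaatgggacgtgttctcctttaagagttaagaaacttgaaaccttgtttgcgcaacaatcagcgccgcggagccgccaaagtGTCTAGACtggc
SKIL chr3:170357465-170357677 plus strand: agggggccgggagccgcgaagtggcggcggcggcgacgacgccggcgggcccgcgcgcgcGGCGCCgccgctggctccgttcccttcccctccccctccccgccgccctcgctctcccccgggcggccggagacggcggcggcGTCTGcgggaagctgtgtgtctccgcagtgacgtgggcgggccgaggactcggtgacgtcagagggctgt
The ID1 window held none of the 3 motifs, and sequence farther upstream was not searched. Of the windows not printed, BAMBI's held GGCGCC and CAGAC. Those of ID3 and TGFB2 and some of SMAD7's held CAGAC, and those of ID2 and TGFB1 held none. Of the 250 bases, 179 of BAMBI's window, 202 of ID2's and all 250 of ID3's lay in annotated exons of the gene. So did all 250 of the SMAD7 window from chr18:48950966, which held CAGAC, and 6 of ID1's, 8 of SMAD6's and 37 of SKIL's. Matches or their lack there need not concern sequence upstream of transcription. Counting the base before the start site as -1, GTCTAGAC lay at -12 to -5 in the SMAD6 window, a sequence found in 64 of 35116 RefSeq windows (0.182%). SKIL held GGCGCC at -190 to -185, a motif in 16.4% of windows, and CAGAC on the opposite strand at -107 to -103, a motif in 38.0%. G and C made up 78.4% of the SKIL window and 81.2% of BAMBI's, beside a median of 58.0% over all windows. The shares of windows with a motif were not matched for this. The motifs do not overlap in these windows, and a match in letters is not a measured binding site.

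The levels were first set side by side in control cells, per kilobase of exon in GENCODE release 29 (GRCh38, the build per the submitters' processing notes). The length merges all annotated exons of a gene, whichever transcripts the cells use, and the order depends on it. In CPM without this division, SKIL (340.4) stood above BAMBI (276.0). BAMBI stood highest at 119.3 ± 7.89 CPM per kilobase (SD, n = 4), followed by ID1 at 84.7 ± 2.98 (SD, n = 4). SKIL at 43.7 ± 8.67 and ID2 at 42.7 ± 9.53 (SD, n = 4 each) did not differ beyond their spread, and ID3 stood at 32.8 ± 1.77 (SD, n = 4). TGFB1 had 15.5 ± 2.61, SMAD7 7.64 ± 0.360 and SMAD6 0.248 ± 0.0379 CPM per kilobase (SD, n = 4 each). SMAD6 was the lowest of the 8 genes tested, and TGFB2, with at most 9 counts in any library, did not pass the filter on low counts.

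ID1 and ID3 rose with PI103 and fell with oxozeaenol. ID1 (chr20:31605283-31606515) had 104, 102, 110 and 102 CPM in the control libraries and 171, 201, 193 and 198 CPM with PI103. With oxozeaenol it had 30.4, 30.4, 45.7 and 23.0 CPM. Both groups lay wholly apart from control, one above it and the other below. The log2 fold change was 0.87 ± 0.174 (SE, adjusted p = 0.000197) with PI103 and -1.69 ± 0.179 (SE, adjusted p = 3.84e-08) with oxozeaenol, by the quasi-likelihood F test of edgeR, adjusted by Benjamini-Hochberg over 13947 genes, as for every adjusted p below. PD0325901 libraries, at 69.3, 46.9, 90.7 and 74.9 CPM, were also all below control, and ID1 fell by 0.57 on the log2 scale (SE 0.173, adjusted p = 0.00722). In every batch the sign was the same for these 3 treatments.

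In neither combination did ID1 pass the test against control. PI103 with oxozeaenol gave 111, 88.8, 105 and 86.9 CPM, overlapping control, and the log2 fold change was -0.09 (approximate 95% interval -0.43 to 0.25, adjusted p = 0.674). PI103 with PD0325901 gave 149, 98.4, 152 and 132 CPM, 3 libraries above control and replicate 2 below it. The log2 fold change there was 0.35 with an adjusted p of 0.0801, which was 0.0406 with the replicate number as a block, 0.0209 with only the groups compared and 0.0238 without replicate 2 of the combination (0.47).

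ID3 (chr1:23557918-23559794, minus strand), the member closest to ID1 in its pattern, had 55.0, 58.6, 59.2 and 62.8 CPM in control. It had 84.6, 92.1, 84.2 and 75.9 CPM with PI103 and 18.2, 18.1, 26.2 and 15.5 CPM with oxozeaenol, again without overlap. ID3 rose by 0.52 ± 0.126 on the log2 scale (SE, adjusted p = 0.00126) with PI103, and with oxozeaenol it fell by 1.60 (SE 0.130, adjusted p = 2.56e-10). PD0325901 libraries had 53.0, 52.3, 68.0 and 49.0 CPM, 3 libraries below every control library and 1 above them all (log2 fold change -0.08, 95% interval -0.33 to 0.16, adjusted p = 0.586). PI103 with PD0325901 raised ID3 in all 4 libraries, to 87.6, 76.0, 84.6 and 72.4 CPM (0.44, adjusted p = 0.00319). PI103 with oxozeaenol left it at 51.7, 40.7, 50.2 and 38.8 CPM, all below control (-0.38, adjusted p = 0.0133). That last call is lost without replicate 4 of the combination (adjusted p = 0.0598).

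ID2 (chr2:8678845-8684453) rose in 4 of the 5 treatments. Control libraries had 84.7, 82.0, 126 and 84.1 CPM, with replicate 3 standing above the others. PI103 gave 220, 222, 252 and 214 CPM and PD0325901 169, 172, 211 and 200 CPM, all above every control library. The log2 fold changes were 1.27 ± 0.129 (SE, adjusted p = 8.85e-09) and 1.00 ± 0.128 (SE, adjusted p = 2.75e-07). The combination of PI103 and PD0325901, with each agent at a lower dose, gave 257, 236, 287 and 306 CPM (1.53 ± 0.130 SE, adjusted p = 1.51e-10). PI103 with oxozeaenol gave 159, 148, 168 and 157 CPM, above control in every library (0.74, adjusted p = 2.15e-05). With oxozeaenol alone ID2 was 85.7, 91.0, 121 and 119 CPM, overlapping control. That log2 fold change of 0.15 had a 95% interval of -0.10 to 0.39 and an adjusted p of 0.351, which is 0.0212 (0.32) without control replicate 3. In the annotation 1.72% of ID2's exons overlap the antisense gene ID2-AS1, and whether reads were counted by strand is not given in the sources used here.

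**Figure D1:**
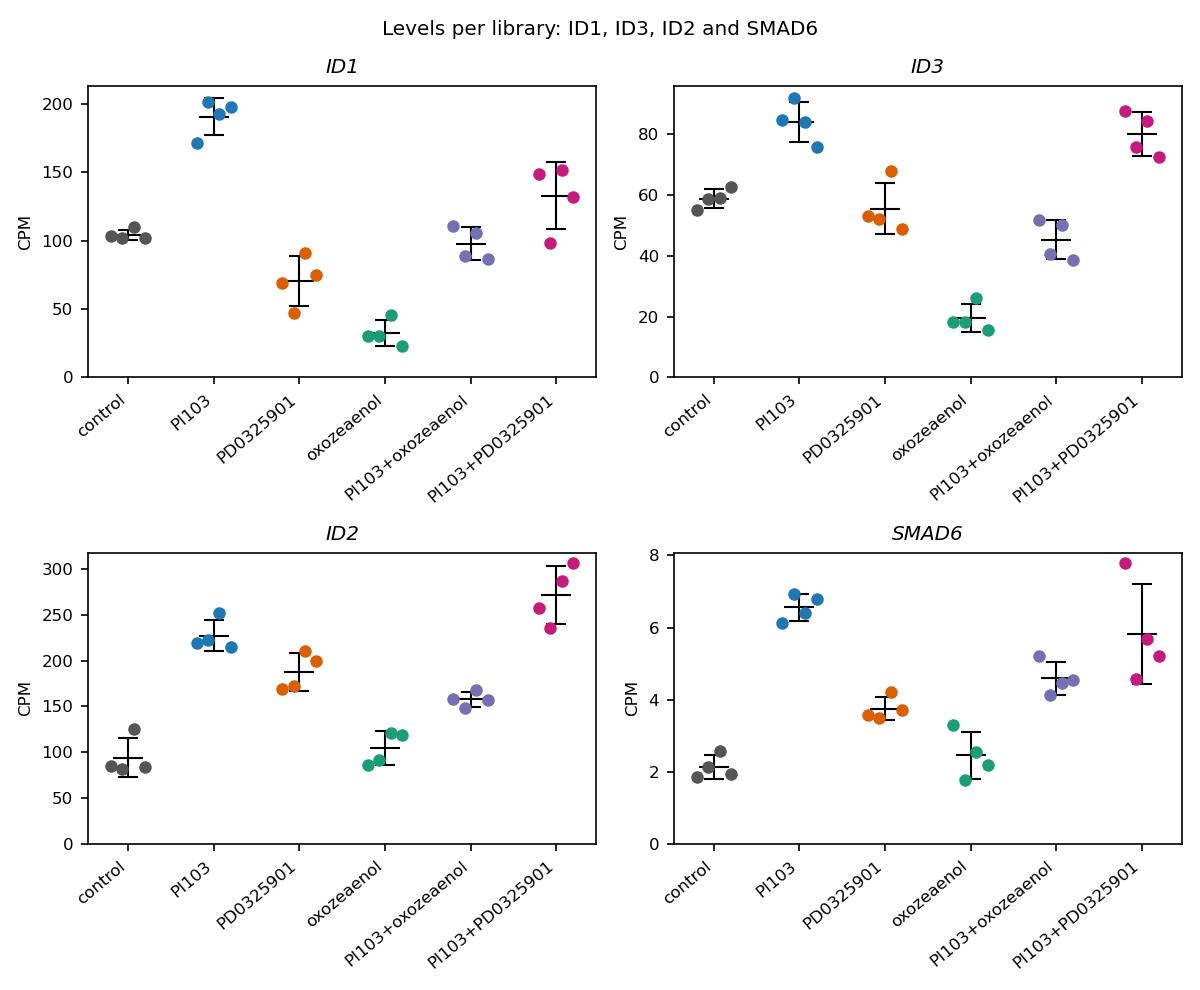
CPM of ID1, ID2, ID3 and SMAD6 in each of the 24 libraries by group, with points for libraries and the mean ± SD of 4 replicates. ID1 and ID3 sit highest with PI103 and lowest with oxozeaenol, while ID2 and SMAD6 are lowest in control and oxozeaenol.

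The inhibitory SMADs differed in direction, with SMAD6 rising in 4 treatments and SMAD7 falling in 4. SMAD6 (chr15:66702228-66782848), which mainly opposes BMP signalling, had 1.85, 2.14, 2.58 and 1.94 CPM in control and 6.12, 6.94, 6.39 and 6.78 CPM with PI103. PD0325901 gave 3.56, 3.50, 4.22 and 3.71 CPM. Both treatments lay wholly above control, with log2 fold changes of 1.62 ± 0.169 (SE, adjusted p = 1.51e-08) and 0.81 ± 0.170 (SE, adjusted p = 0.000196). With oxozeaenol it was 3.31, 1.78, 2.55 and 2.19 CPM, spread across the control range (0.20, 95% interval -0.14 to 0.54, adjusted p = 0.351). Both combinations exceeded every control library: 5.21, 4.14, 4.47 and 4.54 CPM for PI103 with oxozeaenol (1.11, adjusted p = 4.53e-06) and 7.78, 4.57, 5.69 and 5.21 CPM for PI103 with PD0325901 (1.45, adjusted p = 3.97e-08).

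SMAD7 (chr18:48919853-48952052, minus strand), which blocks TGF-beta and BMP receptors alike, fell in 4 treatments and did not pass the test with PI103. Control had 36.5, 38.0, 40.9 and 38.5 CPM and PI103 36.1, 36.4, 37.5 and 36.3 CPM, which overlapped (log2 fold change -0.07, 95% interval -0.22 to 0.08, adjusted p = 0.449). PD0325901 gave 20.4, 18.9, 20.2 and 18.6 CPM and oxozeaenol 13.6, 13.5, 13.8 and 11.04 CPM. Neither came near the control range, and the log2 fold changes were -0.98 ± 0.0771 (SE, adjusted p = 7.17e-11) with PD0325901 and -1.57 ± 0.0789 (SE, adjusted p = 9.09e-14) with oxozeaenol. PI103 with oxozeaenol gave 22.7, 21.9, 21.6 and 19.8 CPM (-0.84, adjusted p = 1.26e-09). PI103 with PD0325901 gave 28.6, 24.9, 29.3 and 27.1 CPM (-0.48, adjusted p = 4.33e-06), and every library of these treatments was below control.

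SKIL (chr3:170357678-170396835), the SMAD corepressor also called SnoN, fell in every treatment. The control libraries had 287, 323, 439 and 312 CPM, with replicate 3 highest. Oxozeaenol brought SKIL to 114, 127, 107 and 63.3 CPM and PD0325901 to 201, 218, 168 and 184 CPM, both wholly below control. The log2 fold changes were -1.73 ± 0.162 (SE, adjusted p = 4.86e-09) and -0.82 ± 0.159 (SE, adjusted p = 9.49e-05). With PI103 it had 261, 217, 298 and 214 CPM, and 1 library exceeded the lowest control library. There SKIL fell by 0.46 (SE 0.158, adjusted p = 0.0172), a call lost without control replicate 3 (0.101), PI103 replicate 2 (0.0581) or PI103 replicate 4 (0.0605). PI103 with oxozeaenol gave 156, 183, 174 and 149 CPM (-1.04, adjusted p = 5.81e-06) and PI103 with PD0325901 220, 222, 247 and 253 CPM (-0.53, adjusted p = 0.00494), below every control library.

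BAMBI (chr10:28677342-28682939) fell where PI103 or oxozeaenol was given without PD0325901. Control libraries had 287, 264, 257 and 296 CPM, PI103 214, 213, 201 and 203 CPM, and oxozeaenol 182, 193, 155 and 147 CPM. The 2 treated groups lay wholly below control, with log2 fold changes of -0.41 ± 0.0917 (SE, adjusted p = 0.000557) and -0.71 ± 0.0921 (SE, adjusted p = 5.56e-07). Their combination had 180, 168, 155 and 156 CPM (-0.74, adjusted p = 1.80e-07). With PD0325901 BAMBI was 292, 230, 292 and 252 CPM, and with PI103 and PD0325901 274, 239, 247 and 258 CPM, both overlapping control. The log2 fold changes were -0.05 (95% interval -0.23 to 0.13, adjusted p = 0.664) and -0.12 (95% interval -0.29 to 0.06, adjusted p = 0.274).

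TGFB1 (chr19:41301587-41353911, minus strand), the founding ligand of the family, passed the test in no treatment against control. Control libraries had 60.5, 47.7, 40.3 and 51.8 CPM. PI103 gave 62.0, 69.8, 55.9 and 58.1 CPM and oxozeaenol 50.6, 43.2, 43.5 and 35.8 CPM, and both overlapped control. The log2 fold changes were 0.30 (95% interval 0.05 to 0.54, adjusted p = 0.0526) and -0.21 (95% interval -0.46 to 0.04, adjusted p = 0.169). With the replicate number as a block they were 0.30 and -0.21 with adjusted p of 0.00655 and 0.0476, so both would be called. TGFB1 with PI103 was called too with only the groups compared (0.0327), without control replicate 1 (0.0132) or without PI103 replicate 3 (0.045). PD0325901 had 59.8, 56.3, 52.6 and 47.5 CPM, PI103 with oxozeaenol 57.4, 53.5, 53.4 and 47.6 CPM, and PI103 with PD0325901 between 46.0 and 70.6 CPM, all overlapping control. Their log2 fold changes were 0.11, 0.08 and 0.19 (adjusted p = 0.469, 0.601 and 0.199). Of TGFB1's exons, 6.64% overlap the antisense gene HNRNPUL1. TGFB2 had 0 to 9 counts, at most 0.141 CPM, in any library, too few to compare.

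**Figure D2:**
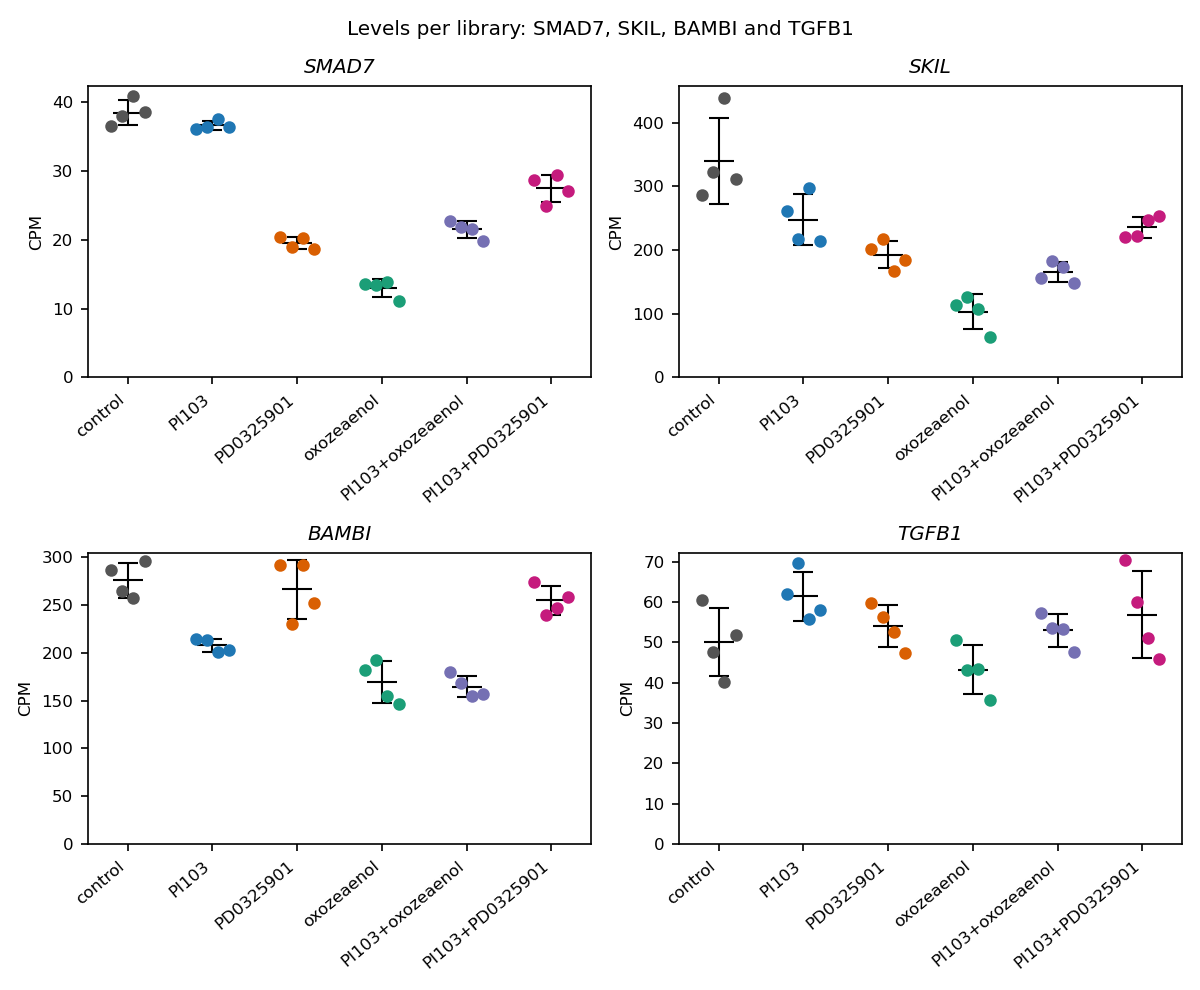
CPM of SMAD7, BAMBI, SKIL and TGFB1 in each of the 24 libraries by group, with points for libraries and the mean ± SD of 4 replicates. SMAD7 and SKIL are lowest with oxozeaenol, BAMBI is low wherever PI103 or oxozeaenol was given without PD0325901, and TGFB1 overlaps between all groups and control.

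Over the 8 genes tested, 4 rose with PI103 (ID1, ID2, ID3, SMAD6), against 26.2% of all genes called higher, and 2 fell (BAMBI, SKIL), against 25.2% called lower. With PD0325901 2 rose (ID2, SMAD6; 28.7% of all genes) and 3 fell (ID1, SMAD7, SKIL; 29.9%). With oxozeaenol 0 rose (25.7%) and 5 fell (ID1, ID3, SMAD7, BAMBI, SKIL; 26.1%), with a median log2 fold change of -1.14 over the 8 genes beside 0.02 over all genes. No member was higher with oxozeaenol at an unadjusted p under 0.05 or in DESeq2 either. With PI103 and oxozeaenol 2 rose (ID2, SMAD6; 27.7%) and 4 fell (ID3, SMAD7, BAMBI, SKIL; 27.9%). With PI103 and PD0325901 3 rose (ID2, ID3, SMAD6; 32.2%) and 2 fell (SMAD7, SKIL; 32.6%). With 8 genes these shares are counts of this list only. The p-values measure the spread between these cultures, with batch differences left in it, since the main fit had no term for the batch.

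Groups were ordered by their mean CPM, and neighbours were compared by whether their libraries overlapped. ID1 ran from oxozeaenol through PD0325901, PI103 with oxozeaenol, control and PI103 with PD0325901 to PI103, and of these neighbours only oxozeaenol from PD0325901 and the last pair had no overlapping libraries. ID3 stood apart between oxozeaenol and PI103 with oxozeaenol and between control and PI103 with PD0325901. ID2 ran from control and oxozeaenol, which overlapped, through PI103 with oxozeaenol, PD0325901 and PI103, each apart from the one before, to PI103 with PD0325901, which overlapped PI103. For SMAD6 only oxozeaenol and PD0325901 were neighbours apart. SMAD7 had 3 steps apart: oxozeaenol to PD0325901, PI103 with oxozeaenol to PI103 with PD0325901, and from there to PI103. BAMBI stepped from oxozeaenol to PI103 and from PI103 to PI103 with PD0325901, and SKIL from oxozeaenol to PI103 with oxozeaenol and from PD0325901 to PI103 with PD0325901. No neighbouring groups were apart for TGFB1 or TGFB2. Taken within batches, SMAD7 and SKIL were below the control of the same number in 4 of 4 batches in every treatment. For SMAD7 with PI103 these log2 differences were only -0.01, -0.06, -0.12 and -0.08, and that change did not pass the test (adjusted p = 0.449). How many of all genes lay on 1 side in 4 of 4 batches was not counted.

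**Figure D3:**
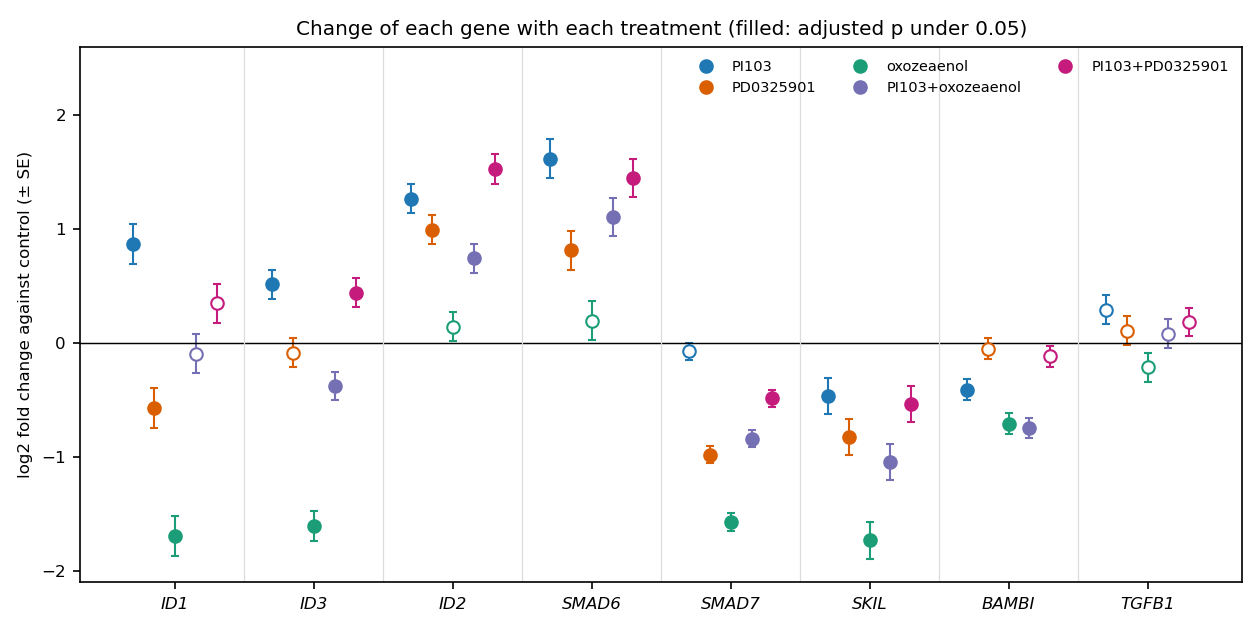
Log2 fold change against control (± SE) of the 8 tested genes for each of the 5 treatments, filled where the adjusted p is under 0.05. The oxozeaenol points of ID1, ID3, SMAD7 and SKIL lie between -1.73 and -1.57, and those of ID2 and SMAD6 are open.

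The single agents were also set against each other at their own doses, which differ, so these contrasts compare the treatments as given. All 8 genes were higher with PI103 than with oxozeaenol, where 43.1% of all genes were called. The difference was largest for ID1 (log2 2.56, SE 0.184, adjusted p = 1.45e-10) and smallest for BAMBI (0.30, SE 0.0917, adjusted p = 0.0107). With oxozeaenol 7 of 8 genes were lower than with PD0325901, where 28.5% of all genes were called. The log2 difference was -1.52 for ID3 (SE 0.130, adjusted p = 7.18e-09) and -0.66 for BAMBI (SE 0.0920, adjusted p = 1.18e-05). TGFB1 was the gene not called (-0.32, adjusted p = 0.0579). It was called with the block (0.00714), in DESeq2 (0.0446), with no filter (0.0493) and without oxozeaenol replicate 1 (0.0183) or PD0325901 replicate 4 (0.0354). Between PI103 and PD0325901, where 44.5% of genes were called, ID1, ID3, SMAD6 and SMAD7 were higher with PI103 and BAMBI lower. ID2 (0.27, adjusted p = 0.0828) and SKIL (0.36, adjusted p = 0.067) were called with the block (0.0121 and 0.0479) and with only the groups compared (0.0339 and 0.0249), and SKIL also without PI103 replicate 4 (0.0481).

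Beside the agents alone, which were given at higher doses, the mean level of 7 of the 8 genes in each combination lay between those of its agents. How many of all genes lay between was not counted, so these counts describe this list only. BAMBI was the exception for PI103 with oxozeaenol, lying below both means (165 against 208 and 169 CPM), and its difference from oxozeaenol was -0.04 (95% interval -0.22 to 0.14). ID2 was the exception for PI103 with PD0325901, lying above both (272 against 227 and 188 CPM). Against PI103, PI103 with oxozeaenol lowered 7 of 8 genes, where 18.3% of all genes were called. TGFB1 was the exception (-0.21, adjusted p = 0.262), and was called with only the groups compared (-0.22, adjusted p = 0.043). ID1 fell by 0.96 (SE 0.174, adjusted p = 0.000306), and the smallest called difference, BAMBI's, was -0.34 (SE 0.0917, adjusted p = 0.0109). The call for SMAD6 (-0.51, adjusted p = 0.0282) is lost without replicate 2, 3 or 4 of either group (0.0545 to 0.0816), and that for SKIL (-0.58, adjusted p = 0.0114) without PI103 replicate 3 (0.0594). Against oxozeaenol the same combination raised 6 genes, ID1 by 1.60 (SE 0.178, adjusted p = 2.77e-06) and ID3 by 1.23 (SE 0.129, adjusted p = 9.04e-07), where 14.9% of all genes were called. TGFB1 differed by 0.29 (adjusted p = 0.12, against 0.0194 with the block and 0.0481 without oxozeaenol replicate 1).

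Against PI103 alone, PI103 with PD0325901 differed in 3 of 8 genes, where 38.7% of all genes were called: SMAD7 fell by 0.41 (SE 0.0763, adjusted p = 0.000135), ID1 fell by 0.52 (SE 0.173, adjusted p = 0.0199) and BAMBI rose by 0.29 (SE 0.0916, adjusted p = 0.013). The ID1 call is lost without replicate 2 of the combination (-0.40, adjusted p = 0.0938). ID2 was higher by 0.26 (adjusted p = 0.11), and was called with the block (0.0236) and with only the groups compared (0.0396). Against PD0325901 it raised 5 of 8, where 18.1% of all genes were called, with ID1 0.92 (SE 0.174, adjusted p = 0.000898) and SMAD7 0.49 (SE 0.0769, adjusted p = 8.19e-05) among them. SMAD6, at 0.64 (adjusted p = 0.00896), loses the call without replicate 1 of the combination (0.0662).

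Each combination was then compared with the mean of its agents' log2 effects. Agents at 50% dose would give that mean if effects on this scale were linear in dose and also added up across the agents. Linearity in dose and additivity were not tested separately. For PI103 with oxozeaenol 0 of 8 genes passed, where 3.98% of all genes did. At an unadjusted p under 0.05, ID1 (0.32, adjusted p = 0.285) and BAMBI (-0.19, adjusted p = 0.233) were found, and DESeq2 called 0. For PI103 with PD0325901, where 22.0% of all genes were called, ID2 exceeded the mean by 0.39 (SE 0.108, adjusted p = 0.0107). The call is lost without replicate 4 of the combination (0.33, adjusted p = 0.0562), and with the block ID3 was called too (0.23, adjusted p = 0.0494 against 0.128 without).

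**Figure D4:**
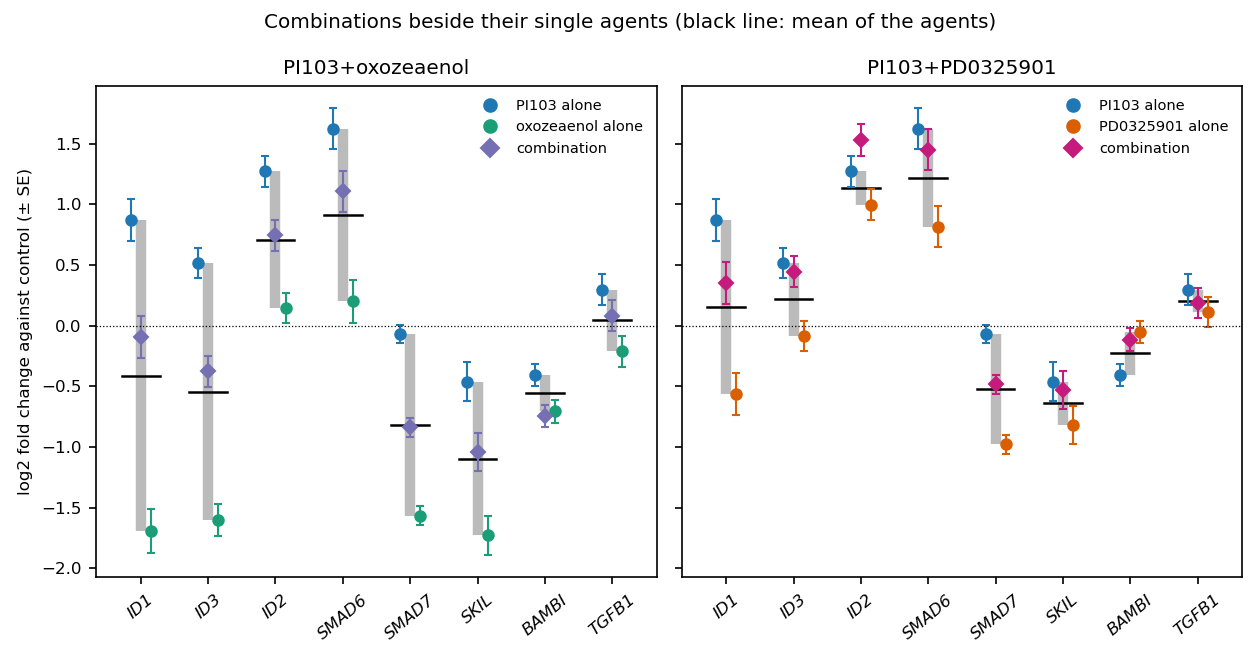
Log2 fold change against control (± SE) of the 8 tested genes for each combination (diamonds) and its single agents (circles), with a black line at the mean of the agents. Most diamonds lie between the agents, BAMBI below both in the first panel and ID2 above both in the second.

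The genes whose log2 CPM followed a member most closely over the 24 libraries were taken from about 10039 genes with at least 5 CPM on average, as a description with no test. ID3 was closest to ID1 (Pearson r = 0.924), with TAGLN next (0.907), and CLTB was second for ID3 (0.905). ID2 was followed by PAQR8 (0.926) and KLHL24 (0.922), SMAD6 by ZNF362 (0.951) and SEMA3B (0.936), and SMAD7 by RASGRP1 (0.948) and MKL1 (0.946). BAMBI was followed by SDCCAG8 (0.886) and C14orf133 (0.882), SKIL by SLC2A3 (0.942) and RB1CC1 (0.936), and TGFB1 by FLII (0.924) and RNPEPL1 (0.922). The 24 libraries fall into 6 groups and share their batches.

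Of 61 other pathway genes, 51 passed the filter on low counts. With oxozeaenol 8 were called higher, 23 lower and 20 neither, beside 25.7% of all genes higher and 26.1% lower, with a median log2 fold change of -0.17 beside 0.02 over all genes. Among 11 tested target genes 9 were lower and 0 higher, and among 7 antagonists and latency proteins 4 were higher and 1 lower. The 1 that fell was NOG, a BMP antagonist at 0.274 ± 0.166 CPM in control (SD, n = 4; -1.27, adjusted p = 0.0405, and 0.058 with the block). With PI103 17 of the 51 were called higher and 16 lower, beside 26.2% and 25.2% of all genes, and with PD0325901 10 and 21, beside 28.7% and 29.9%. With PI103 and oxozeaenol 12 were higher and 18 lower, beside 27.7% and 27.9%, and with PI103 and PD0325901 13 and 17, beside 32.2% and 32.6%. The split by role was not particular to oxozeaenol. Target genes were lower against higher in 5 against 3 with PI103 and 7 against 1 with PD0325901. It was 8 against 1 with PI103 and oxozeaenol and 7 against 2 with PI103 and PD0325901. Of the antagonists and latency proteins, 6 were higher and 0 lower with PI103, and 5 were higher and 0 lower with each combination. With PD0325901 5 were higher and 1 lower. The 1 was again NOG (-1.28, adjusted p = 0.0311), which rose with PI103 (1.27, adjusted p = 0.0136). LTBP1, LTBP2 and LTBP3 belong to the latent TGF-beta binding proteins, a family of matrix proteins with members that hold TGF-beta in store. All of them rose in every treatment. LTBP2 went from 1.63 ± 0.337 CPM in control to 8.01 ± 0.959 with PI103 (SD, n = 4 each; 2.30, adjusted p = 1.08e-09), and LTBP3 from 30.4 ± 3.10 to 72.5 ± 5.56 CPM (SD, n = 4 each; 1.26, adjusted p = 4.31e-11). LTBP1 rose by 0.94 with oxozeaenol (adjusted p = 4.47e-07).

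GDF15, BHLHE40 and CYR61 fell in every treatment. GDF15, a stress-induced ligand of the family, had 366 ± 94.2 CPM in control and fell by 3.05 with PI103 (adjusted p = 1.29e-10), by 2.34 with PD0325901 (adjusted p = 3.62e-09) and by 2.10 with oxozeaenol (adjusted p = 2.98e-08). BHLHE40, a transcriptional repressor, had 99.0 ± 4.90 CPM and fell by 2.38 with oxozeaenol (adjusted p = 4.16e-14) and by 0.83 with PI103 (adjusted p = 5.11e-07). CYR61, a matrix protein, fell by 0.92 with PI103 (adjusted p = 1.15e-06) and by 1.31 with PD0325901 (adjusted p = 2.88e-09). ID4 had at most 1 count and was not tested.

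The receptor genes differed, TGFBR1 rising in 5 treatments and TGFBR2 rising in 1 and falling in 3. TGFBR1, the signalling kinase, rose by 0.40 with PI103 (adjusted p = 0.00354) to 0.96 with PD0325901 (adjusted p = 4.28e-08). TGFBR2, which binds the ligand first, had 60.3 ± 4.01 CPM in control (SD, n = 4), rose by 0.57 with PI103 (adjusted p = 0.000410) and fell by 1.94 with PD0325901 (adjusted p = 3.72e-12), by 0.90 with oxozeaenol (adjusted p = 1.48e-06) and by 1.44 with PI103 and PD0325901 (adjusted p = 3.04e-10). With PI103 and oxozeaenol TGFBR2 had -0.23 (adjusted p = 0.124), called with only the groups compared (-0.22, adjusted p = 0.0158). SMAD4, the common partner, was called with PD0325901 (-0.25, adjusted p = 0.0137), a call lost without control replicate 3 (0.151) or PD0325901 replicate 1 (0.0636) and with only the groups compared (0.0905). With oxozeaenol SMAD4 had -0.16 (adjusted p = 0.105), called without control replicate 4 (-0.22, adjusted p = 0.0465). MAP3K7, the target of oxozeaenol, had 63.8 ± 5.26 CPM in control (SD, n = 4) and 59.5 ± 4.55 CPM with oxozeaenol (-0.10, adjusted p = 0.313). With PI103 and oxozeaenol it was -0.19 (adjusted p = 0.0467), a call lost without control replicate 1 or 3 or combination replicate 1, 3 or 4 (0.0881 to 0.184) and with only the groups compared (0.0711). Of the 3 E proteins that ID proteins bind, TCF4 rose by 1.12 with PD0325901 (adjusted p = 1.96e-07), TCF12 fell by 0.80 (adjusted p = 2.06e-06) and TCF3 had a value of 0.09 (adjusted p = 0.399). TCF12 fell in all 5 treatments. TCF4 also rose with oxozeaenol (0.50, adjusted p = 0.00446) and with PI103 and PD0325901 (0.65, adjusted p = 0.000217). TCF3 rose with PI103 (0.28, adjusted p = 0.00794) and with PI103 and oxozeaenol (0.27, adjusted p = 0.00978). Neither gene passed the test in its remaining treatments.

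**Figure D5:**
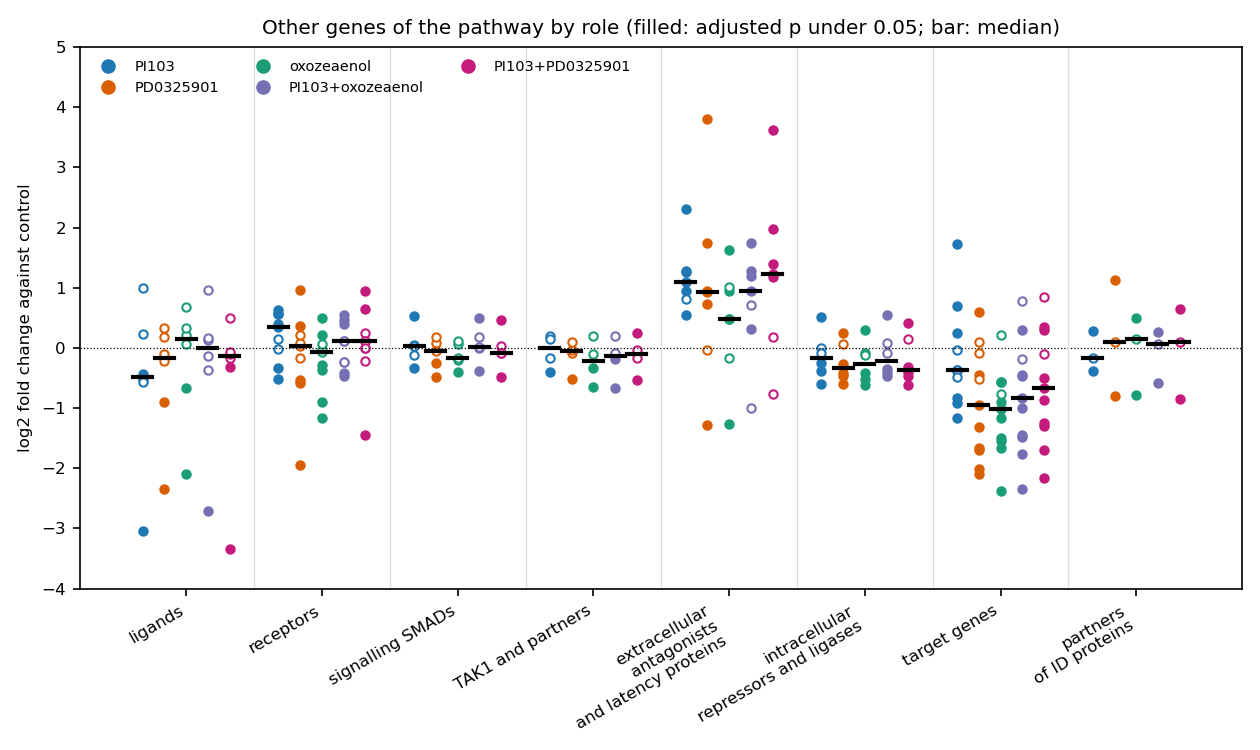
Log2 fold change against control of the other pathway genes by role, with 1 point per gene and treatment, filled where the adjusted p is under 0.05, and a bar at the median. The target genes lie mostly below 0, and the antagonists and latency proteins mostly above.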

How the data were processed

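RNA from AGS cultures was made into stranded mRNA libraries, per the labels' protocols. The authors deposited whole-number read counts per gene symbol for 24 libraries. The build was GRCh38, per the submitters' processing notes, and the aligner, the counting program and the annotation are not given in the sources used here. The 5 tallies of unassigned reads (no feature, 4.24% to 8.57% of a library, and ambiguous, 1.57% to 2.01%, among them) were left out.

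Sample titles set the groups. In later replicates the treatment field gives compound names whose final digits count upward and differ from the titles. Genes kept by edgeR's filterByExpr (13947 of 23368) were fitted in edgeR 4.0.16 (R 4.3.3) after TMM scaling, with 1 coefficient per group over all 24 libraries. Robust quasi-likelihood F tests were two-sided, with Benjamini-Hochberg adjustment over all genes and calls at an adjusted p under 0.05. The SE is the size of the log2 fold change over the root of F, and the approximate 95% interval is the normal one from that SE. CPM were computed on TMM-scaled library sizes. The common biological coefficient of variation was 0.131, and the fit was tested on simulated data.

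Replicate numbers equal the batch field of the labels, so they pair the samples. Deviations from group means correlated at 0.12 on average over 60 same-numbered pairs and at -0.04 over 180 others. Alternatives were the replicate block, median-of-ratios scaling, no filter, only the groups compared, each library left out, and DESeq2 1.42.0. No 2 libraries held identical counts. The 9 genes, the lists and the naming rules were chosen with earlier results of these data known. All 9 genes were named, with 7 pathway genes whatever their values, of which 1 is not reported here. To these were added the 2 largest rises and falls per treatment among pathway genes that passed the test with a mean of at least 5 CPM in either group, and the 2 genes most like each of the 8 tested genes. Other genes of the list were named to account for small counts (NOG) or beside a named partner (TCF3, TCF12), the latter chosen after their values were seen.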

Additional observations from a re-analysis of the deposited data

Results flagged for a closer look

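Of 54 sets of 4 libraries examined (9 genes in 6 groups), 2 held a library far from the other 3. Chance alone gives about 1 in 20 sets, so 2 of 54 is no more than chance alone would give. ID2 in control replicate 3 was 125.6 CPM, against 82.0 to 84.7 CPM in the other control libraries. SMAD7 in oxozeaenol replicate 4 was 11.04 CPM, against 13.5 to 13.8 CPM in the other oxozeaenol libraries.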

How the results depend on the processing

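Against control, the number of the 8 tested genes called was 6 for PI103, 5 each for PD0325901 and oxozeaenol, and 6 and 5 for PI103 combined with oxozeaenol or PD0325901. With the replicate block these counts were 7, 5, 6, 6 and 6 in the same order, and DESeq2 gave 6, 5, 5, 6 and 5. No called value changed sign under any alternative run. For PI103 with PD0325901 against the mean of its single agents, 1 gene was called, 2 with the replicate block, and 0 to 1 when 1 library was left out. Over all genes, the count for PI103 with oxozeaenol against PI103 went from 2553 to 4088 with only the groups compared. Against oxozeaenol it went from 2074 to 1050 without replicate 1 of the combination, 1347 without its replicate 3 and 1312 without oxozeaenol replicate 3. For PI103 with PD0325901 against PD0325901 it went from 2521 to 1222, and for oxozeaenol against PD0325901 from 3976 to 2348, both with only the groups compared. The former was 1531 without replicate 1 of the combination and 1385 without PD0325901 replicate 3, and the latter 2385 without PD0325901 replicate 2. Against the mean of the agents, the count for PI103 with oxozeaenol was 555, 997 with the replicate block, 887 with only the groups compared and 232, 258 and 280 without replicate 1, 3 or 4 of the combination. For PI103 with PD0325901 it was 3065, and 1466 without replicate 2 of the combination. The cause was not tested. Depth did not allow a test of TGFB2.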
